A study of Caenorhabditis elegans with 2 samples.

Results

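Transfer RNA (tRNA) genes were examined in a map of where the tagged homeodomain protein IRX-1 was found on the genome of Caenorhabditis elegans larvae. The regions were chosen by position, from the pooled list of peaks and background on ce11. A region was kept when its summit lay in, or within 200 bp of, an annotated tRNA gene. Of 28191 pooled regions, 328 met this rule. The annotation holds 634 tRNA genes, of which 612 are nuclear and 22 are mitochondrial. The pooled list holds no region on the mitochondrial chromosome, so every region described lies at a nuclear gene.

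The series holds 1 group, whole hermaphrodite L1 larvae of strain OP536, with 2 biological replicates. The strain carries the unc-119(tm4063) mutation on chromosome III and the transgene insertion wgIs536, from which IRX-1 is made with a C-terminal GFP-FLAG tag. Larvae were taken 6 hours after release from synchronization by starvation of bleached animals, chromatin was sonicated, and the tagged protein was recovered with an antibody against GFP, per the labels. All cells of the larva were pooled, and no second condition, untagged strain or list from another factor was used here. Occupancy by IRX-1 and signal that many immunoprecipitations share therefore cannot be told apart, and conditions could not be compared. The values below are counts, shares and levels of the deposited lists, given beside the same over all regions, with no p-values. Intervals on shares are 95% Wilson intervals and cover counting error only.

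IRX-1 belongs to the Iroquois family of homeodomain proteins, which bind DNA and regulate transcription by RNA polymerase II. tRNA genes are transcribed by RNA polymerase III. Their promoter lies inside the gene, in the A box near the 5′ end and the B box in the part that encodes the T loop. The factor TFIIIC binds both boxes and places TFIIIB just upstream of the start, TFIIIB recruits the polymerase, and transcription ends at a run of T after the gene. In worms many tRNA genes lie on the X chromosome or in introns of protein-coding genes, and many are exact copies of one another.

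The genes below are shown because their regions were among the 12 with the highest scores, and because they show the promoter elements inside the gene. Sequences are from the RefSeq genome WBcel235, the assembly that ce11 names, 5′ to 3′ on the gene's strand. Capitals mark the B box core GTTCNANNC and, where the gene holds it, the A box core TNGCNNA. This A box core is a fixed spelling, so a gene without it in capitals is not shown to lack an A box.
F15G9.t1, alanine tRNA, chrX:9743589-9743660, plus strand: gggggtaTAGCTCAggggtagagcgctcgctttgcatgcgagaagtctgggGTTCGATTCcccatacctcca
F46G11.t2, proline tRNA, chrX:5801211-5801282, minus strand: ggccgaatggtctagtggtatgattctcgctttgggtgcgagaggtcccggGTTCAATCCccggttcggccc
R04A9.t1, glutamine tRNA, chrX:410391-410462, plus strand: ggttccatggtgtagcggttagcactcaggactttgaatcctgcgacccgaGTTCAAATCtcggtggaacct
R11.t1, tyrosine tRNA, chrX:16209769-16209852, minus strand: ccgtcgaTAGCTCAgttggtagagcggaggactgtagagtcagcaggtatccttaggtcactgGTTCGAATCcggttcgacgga
C33G3.t2, lysine tRNA, chrX:14063946-14064018, minus strand: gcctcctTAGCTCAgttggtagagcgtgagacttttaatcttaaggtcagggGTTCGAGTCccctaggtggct

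Many regions at tRNA genes reached the authors' optimal list. The optimal list holds the regions kept by a cutoff on the irreproducible discovery rate, a measure of how well peak ranks repeat between replicates. It took in 124 of the 328 regions (37.8%, interval 32.7 to 43.2%), against 8.67% of all pooled regions. The lowest optimal score was 81.4, in the authors' own peak score, whose formula is not given and which was compared only within a list. The score of the regions at tRNA genes had a median of 65.8, with quartiles of 41.02 and 100.4 and a highest value of 404.6. Over all pooled regions the median score was 36.3, with quartiles of 30.6 and 47.5 and a highest value of 1185. Set on the scale of ranks, the median region at a tRNA gene stood at percentile 87.7 of the pooled list. Within the optimal list the order was different: optimal regions at tRNA genes had a median score of 116, below the 130.7 of the whole optimal list. Regions at tRNA genes were 36 of the 1000 highest-scoring pooled regions (3.6%), 2 of the 200 highest (1%) and none of the 100 highest, against 1.16% of the whole pooled list. The counts among the 100 and 200 highest are small and near that share.

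**Figure D1:**
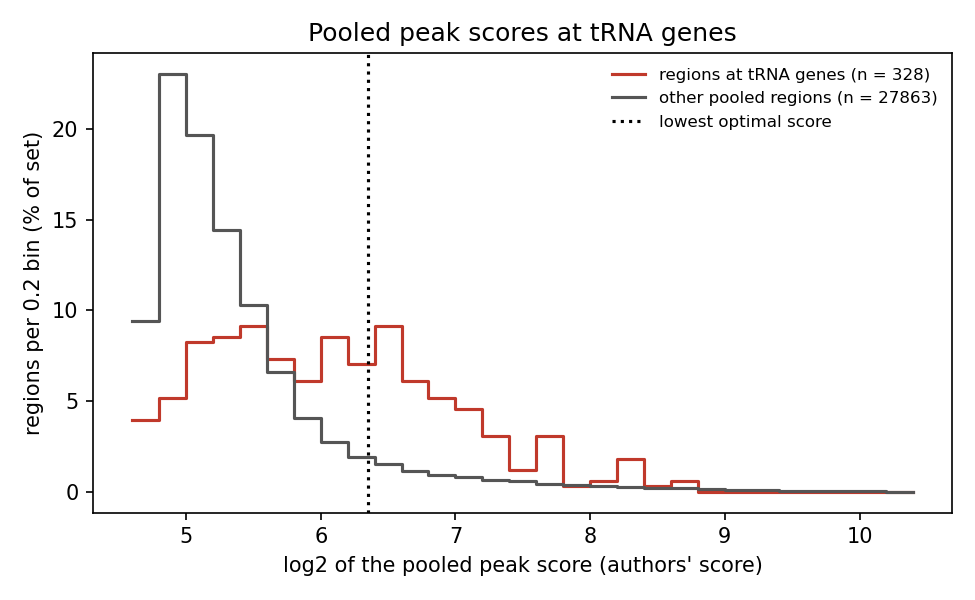
Distribution of the log2 of the authors' pooled peak score, as the percentage of each set per bin, for the 328 regions at tRNA genes and the 27863 other pooled regions. The dotted line marks the lowest score in the optimal list, and 37.8% of the regions at tRNA genes are in that list, against 8.33% of the others.

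Other small RNA genes and tRNA pseudogenes were set beside them. The same rule gave 146 regions at snoRNA genes, which guide RNA modification, with 53.4% in the optimal list (interval 45.3 to 61.3%). It gave 43 regions at snRNA genes, which include spliceosomal RNAs, with 60.5% (interval 45.6 to 73.6%). RefSeq lists 209 tRNA pseudogenes, which are degenerate copies of tRNA genes. The 29 regions at these and at no tRNA gene included 2 optimal ones (6.90%, interval 1.91 to 22.0%), near the 8.67% of all pooled regions, and their median score was 37.3. The number of regions at pseudogenes is small, and none of these differences was tested.

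The strongest region at a tRNA gene lay upstream of the glutamate gene C28G1.t1 (chrX:8835799-8836208). Its score was 404.6 in the pooled list, where it ranked 171, with 236.4 in replicate 1 and 176.9 in replicate 2. Its summit was 109 bp upstream of the tRNA gene and also in the promoter windows of the protein-coding genes C28G1.2 and sec-15, an exocyst subunit, so the signal cannot be assigned to the tRNA gene alone. A promoter window here covers the 1000 bp before a protein-coding start and 200 bp after it. The other 11 of the 12 highest-scoring regions lay outside such windows.

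Next came the region between the glycine gene M02F4.t1 and the glutamate gene M02F4.t2, which are transcribed away from each other (score 389.5; 200 in replicate 1 and 183.6 in replicate 2). The region of the asparagine gene F41D9.t3, in an intron of the sulfate permease family gene sulp-3, followed with a score of 346.8, and with 164.8 in replicate 1 and 182.8 in replicate 2. The region at the alanine genes F15G9.t1 and F15G9.t2, in an intron of the hemicentin gene him-4, scored 328.5. All 12 regions were in both replicate lists, with ranks between 148 and 472 in replicate 1 and between 172 and 530 in replicate 2.

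The remaining high scorers covered several amino acids. They were the arginine gene F47G6.t1 on chromosome I in the myosin gene spe-15 (326.9), the proline pair F46G11.t1 and F46G11.t2 (314.9), and the glutamine gene R04A9.t1 (313.6). The proline pair W09D6.t1 and W09D6.t2 on chromosome III, in the spindle assembly gene rsa-2, scored 307.7, and the serine pair C53C7.t1 and C53C7.t2 scored 294.8. R11.t1 scored 259.5, C33G3.t2 scored 256.5, and the aspartate gene F52H2.t1, in the amino acid transporter gene aat-3, scored 244.8. Of the 12 regions, 10 were on X. On the other chromosomes the highest scores were 206.4 at the lysine gene K08E7.t1 (chromosome IV, in the P-glycoprotein gene pgp-1), 202.5 at the lysine gene T23F1.t1, next to the proline gene T23F1.t2 (chromosome V) and 149.5 at the valine gene W03C9.t1 (chromosome II). The summit at T23F1.t1 also lay in the promoter windows of the protein-coding genes pqn-71 and rocf-1. Its signal cannot be assigned to the tRNA genes alone.

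Regions that served 2 tRNA genes were among these. A second tRNA gene lay within 200 bp of the summit in 19 regions, of which 9 were optimal, and the median score of those 9 was 294.8. The 115 optimal regions with 1 tRNA gene had a median of 113. Without the threshold the sets were closer, with a median of 73.5 over the 19 regions and 64.8 over the 309 with 1 tRNA gene. The optimal shares were 47.4% (interval 27.3 to 68.3%) and 37.2% (interval 32.0 to 42.7%), and these intervals overlap. Of 7 regions between or at divergent pairs, 4 were optimal, with the highest score 389.5. These 4 are the regions of M02F4, F46G11, W09D6 and C53C7. With 5 convergent and 7 same-strand pairs, the groups are too small for an order among arrangements.

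The deposited regions of 3 of these divergent pairs are shown, plus strand of WBcel235, since their summits fall in the sequence between the genes. Capitals mark bases of annotated tRNA genes, and the regions of F46G11 and C53C7 hold none.
F46G11.t1 and F46G11.t2, chrX:5801318-5801437, summit at 5801349: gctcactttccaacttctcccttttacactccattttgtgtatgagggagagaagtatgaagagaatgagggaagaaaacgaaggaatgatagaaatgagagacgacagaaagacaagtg
W09D6.t1 and W09D6.t2, chrIII:11066866-11067044, summit at 11066973: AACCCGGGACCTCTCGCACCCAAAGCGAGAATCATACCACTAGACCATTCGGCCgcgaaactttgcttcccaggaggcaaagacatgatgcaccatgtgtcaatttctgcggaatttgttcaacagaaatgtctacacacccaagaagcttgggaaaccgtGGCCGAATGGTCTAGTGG
C53C7.t1 and C53C7.t2, chrX:13046451-13046566, summit at 13046511: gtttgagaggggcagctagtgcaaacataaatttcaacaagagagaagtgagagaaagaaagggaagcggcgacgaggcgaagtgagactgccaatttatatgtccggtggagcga

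The optimal threshold fell inside a continuous run of scores. The lowest optimal regions were those of the leucine gene C43G2.t1 (81.7), the threonine gene W02G9.t2 (82.8) and the aspartate gene F22F1.t5 (82.8). The highest region outside the list, at the threonine gene F55G7.t2, scored 81.2. C43G2.t1 has 2 optimal regions that overlap, with pooled scores of 109.1 and 81.7. The summits of both were covered by the same region in each replicate list, which scored 85.6 in replicate 1, rank 981, and 24.3 in replicate 2, rank 6617, so these replicate values are not specific to the weaker one. Of the 244 regions at tRNA genes covered in both replicate lists, 10 share both replicate values with another in this way.

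Optimal summits lay mostly around the 5′ end of the gene. The regions are wide beside the gene: 320 of the 328 were 410 bp wide, and the median gene has 72 bases. Reads from inside identical copies cannot be placed uniquely, and whether this shifted summits towards the flanks was not tested. Positions were counted along the strand of the nearest tRNA gene, with 0 for its first base. Of the optimal regions, 60.5% had the summit upstream, 29.8% in the gene and 9.68% downstream. The median position of optimal summits was -16, with quartiles of -33.8 and 19. Over all 328 regions at tRNA genes the median was -8.5, with quartiles of -37 and 66. The 50 bases before the gene held 59 of the 124 optimal summits, and bases 0 to 49 of the gene held 34. The replicate lists gave like medians: among regions in the top 2445 of each list, the size of the optimal list, the median was -17 for replicate 1 and -14 for replicate 2. Relative to the centre of the B box core, optimal summits had a median of -72, and 30.6% lay within 50 bp of it.

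Regions below the threshold were spread more widely and lay downstream more often. Of 204 such regions, 47.1% had the summit upstream, 21.6% in the gene and 31.4% downstream. Positions 100 to 199 held 4.03% of the optimal summits and 17.6% of those below the threshold, and positions of 200 or more held 1.61% of the optimal ones and 12.7% of those below. Of the 64 regions below the threshold with a downstream summit, 24 overlapped an optimal region at a tRNA gene (37.5%), against 3 of 96 with an upstream summit. The median score of the downstream ones was 40.3.

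**Figure D2:**
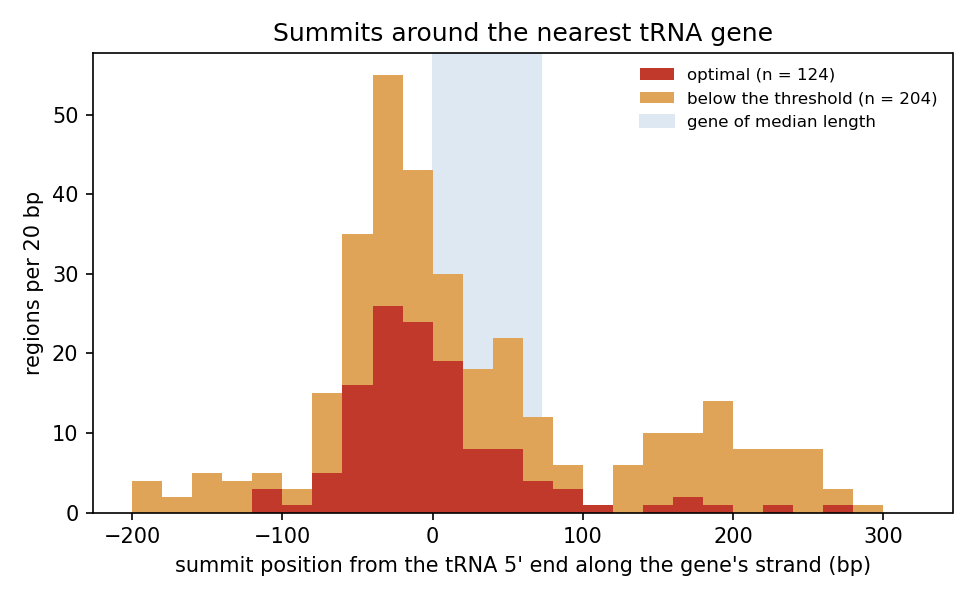
Number of summits per 20 bp along the strand of the nearest tRNA gene, with position 0 at its first base, for optimal regions (lower part of each bar) and regions below the threshold (upper part). The shaded band is a gene of the median length, 72 bases, and optimal summits gather from 50 bases before the gene to base 49.

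The share of optimal regions was highest for summits within 50 bp of the gene and lower beyond. It was 45.7% for the 81 summits in the gene, 51.2% for the 127 at 1 to 50 bp and 27.1% for the 59 at 51 to 100 bp. At 101 to 150 bp it was 11.4% (4 of 35), and at 151 to 200 bp it was 7.69% (2 of 26, interval 2.14 to 24.1%), which is near the 8.67% of all pooled regions. Just inside the limit of 200 bp, the 3 summits at 196 bp from T07H6.t2, Y69A2AR.t2 and T04F8.t1 scored 29.0, 45.5 and 52.7. Just outside it, summits at 205, 207 and 208 bp from C06G1.t2, F08G5.t1 and Y53C10A.t1 scored 37.4, 26.7 and 27.7. None of these 6 was optimal.

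Regions at tRNA genes had close optimal shares outside and inside protein-coding promoters. Of the regions at tRNA genes, 258 had a summit outside every protein-coding promoter window, and 37.2% of these were optimal (interval 31.5 to 43.2%), against 5.07% of all pooled regions outside such windows. The 70 regions inside a window were optimal in 40.0% of cases (interval 29.3 to 51.7%), against 18.0% of all pooled regions inside one. Summits in introns of protein-coding genes were optimal in 52 of 135 cases (38.5%), and those outside protein-coding genes in 68 of 165 (41.2%). In exons it was 4 of 28 (14.3%, interval 5.70 to 31.5%). The shares over all pooled regions in introns, in exons and outside genes were not counted. Whether these differences are particular to tRNA genes is therefore not known. Of 55 optimal regions inside a single protein-coding gene, 27 had a tRNA gene on the strand of that gene and 28 on the other strand.

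Seen from the genes, about as many tRNA genes had a pooled summit nearby as had none. Of 612 nuclear tRNA genes, 301 (49.2%) had a pooled summit within 200 bp, and 128 (20.9%, interval 17.9 to 24.3%) had an optimal one. The number of genes is above that of optimal regions because some summits serve a second gene. Of genes with no other tRNA gene within 500 bp, 22.9% of 442 had an optimal summit (interval 19.2 to 27.0%). Of those with a near neighbour 15.9% of 170 did (interval 11.15 to 22.1%), and the intervals overlap.

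X carried a large share of the regions, close to its share of tRNA genes. It held 153 of 328 regions at tRNA genes (46.6%, interval 41.3 to 52.1%), against 19.2% of all pooled regions, and it carries 276 of the 612 nuclear tRNA genes (45.1%). Among optimal regions at tRNA genes the X share was 52.4% (interval 43.7 to 61.0%), against 18.9% of the whole optimal list. On X 67 of 276 tRNA genes had an optimal summit (24.3%, interval 19.6 to 29.7%), and on the autosomes 61 of 336 did (18.2%, interval 14.4 to 22.6%), so the intervals overlap. On the autosomes the share ranged from 13.6% on chromosome I to 23.4% on chromosome III. X regions had a median score of 68.0 and autosomal regions one of 64.8. Of the 20 highest-scoring regions 15 were on X, a small set in which no difference was tested. The 100 highest were all optimal, and 54 of them were on X, near the 52.4% of all optimal regions at tRNA genes.

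**Figure D3:**
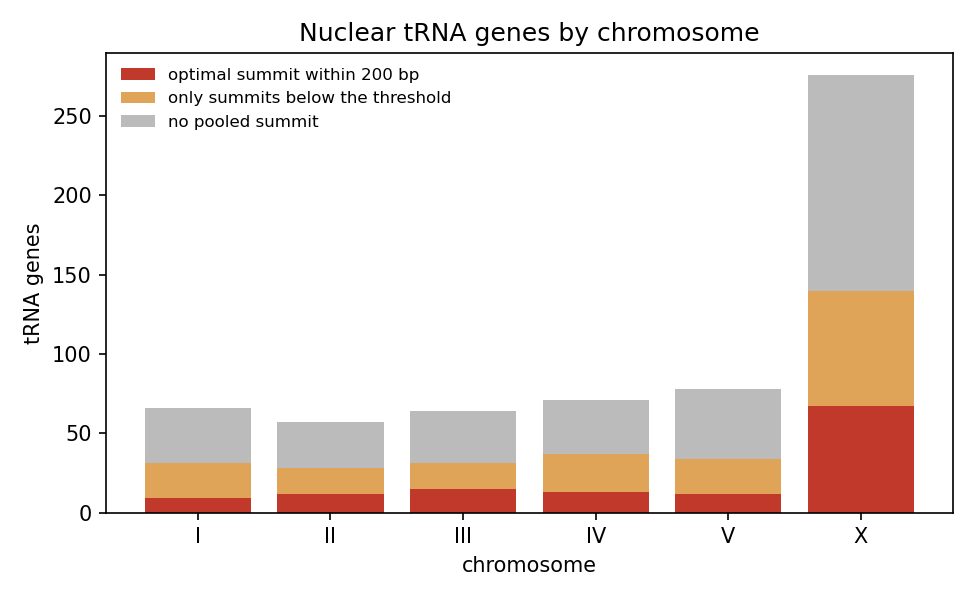
Number of nuclear tRNA genes on each chromosome, split into genes with an optimal summit within 200 bp, genes with pooled summits below the threshold alone, and genes with no pooled summit. X has 276 genes, of which 67 have an optimal summit, and the 5 autosomes together have 336, of which 61 do.

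Every amino acid was represented. RefSeq gives the amino acid of 607 of the 612 nuclear genes, and the other 5 had no pooled summit. Among the amino acids with 12 or more genes, the share of genes with an optimal summit ran from 9.09% for glycine (5 of 55, interval 3.95 to 19.6%) to 29.0% for valine (9 of 31, interval 16.1 to 46.6%). Asparagine, at 10.0% (2 of 20), was second from the bottom and leucine, at 28.2% (11 of 39), second from the top. The intervals of all these overlap with that of the 612 genes, at 17.9 to 24.3%, so no order among amino acids is drawn from them. The single gene for selenocysteine, the amino acid read at a recoded stop codon, is K11H12.t1 (chromosome IV, 658181 to 658266). It had an optimal summit 30 bp upstream, with a pooled score of 116, and with 57.8 in replicate 1 and 60.4 in replicate 2.

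Exact copies of a tRNA gene differed in their signal. The 612 genes have 200 distinct sequences, and 469 genes belong to 57 groups of identical copies. In 40 of these groups some copies had an optimal summit and others had none, in 16 no copy had one, and in 1 all copies had one. The largest group, 29 copies of a glycine gene, had an optimal summit at 4 copies, and the best score per copy ran from 31.1 to 389.5 over the 13 copies with a region. The 25 copies of a lysine gene had 7, with scores from 29.7 to 206.4 over 15 copies. The 24 copies of a proline gene, printed above as F46G11.t2, had 7, with scores from 33.8 to 314.9 over 9 copies. Genes with a sequence of their own had an optimal summit in 14.7% of 143 cases (interval 9.81 to 21.4%). For genes in groups of 11 or more copies it was 22.3% of 287 (interval 17.9 to 27.5%), so the intervals overlap. Reads from inside identical copies cannot be placed uniquely, and how such reads were aligned is not given in the sources used here.

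The B box core and the run of T were found at nearly all tRNA genes of every class, and the A box core, as spelled here, at fewer. The B box core GTTCNANNC was found in 97.7% of genes with an optimal summit, in 96.5% of those with lower summits alone, and in 94.9% of those with no pooled summit. In windows of 72 bases at other pooled summits, searched on both strands, it was found in 2.13%. The B box is part of the tRNA gene itself, so this contrast describes tRNA genes and not the signal at them. The A box core TNGCNNA in the first 25 bases was found in 56.2%, 62.4% and 50.8% of those gene classes in the same order, and in 12.1% of windows of 25 bases at other pooled summits, searched on both strands. A run of 4 T in the 25 bases after the gene was found in 99.2%, 100% and 97.7%, and a run of 4 T or 4 A in 54.4% of such windows.

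The sequence before the gene differed between the classes, and the hexamer used to describe this was picked from the data. In a first look at 6 motifs tried by hand, GAGAGA differed most between the classes. All 6-base sequences in the 100 bases upstream, each counted with its reverse complement, were then compared between genes with an optimal summit and genes with no pooled summit. Of 2077 such sequences GAGAGA had the largest excess, 32.5 percentage points. AGAGAA, with 27.2, and AGAGAG, with 25.1, came next and overlap it. At the other end AAAATT lay at 10.2% of genes with an optimal summit and 29.3% of those with none, a difference of -19.1 points. Among the motifs tried by hand CTGCGT lay at 13.3% of genes with an optimal summit and 2.89% of those with none, and TATA at 28.1% and 33.8%. The values that follow for GAGAGA are those of the most extreme of these sequences on the same genes. They are descriptions, are likely larger than an unselected motif would give, and are not independent support for any role of the hexamer.

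GAGAGA, or TCTCTC on the other strand, lay in the 100 bases upstream of 54 of 128 tRNA genes with an optimal summit (42.2%, interval 34.0 to 50.9%). At genes with lower summits alone it lay in 25 of 173 (14.5%, interval 9.98 to 20.5%), and at genes with no pooled summit in 30 of 311 (9.65%, interval 6.84 to 13.4%). Windows of 100 bases held it at 26.6% of optimal summits at tRNA genes and at 26.3% of all optimal summits, and at 9.10% of all pooled summits. At the 54 genes the match nearest to the gene began at a median of 53 bases before it, at position -53, with quartiles of -69.2 and -24.2.

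Turned round, 54 of the 109 tRNA genes with the hexamer upstream had an optimal summit (49.5%, interval 40.3 to 58.8%), against 74 of the 503 without it (14.7%, interval 11.9 to 18.1%). Among genes with a pooled summit, the median best score was 103.6 with the hexamer (79 genes) and 61.9 without it (222 genes). The GC content of the same 100 bases moved with it: its median was 46% at genes with an optimal summit, 43% at those with lower summits and 38% at those with none. Its part in the difference was not tested.

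On X the contrast between classes was wider than on the autosomes. The hexamer lay upstream of 37 of 67 X genes with an optimal summit (55.2%, interval 43.4 to 66.5%) and of 7 of 136 X genes with no pooled summit (5.15%, interval 2.51 to 10.2%). On the autosomes it lay upstream of 17 of 61 (27.9%, interval 18.2 to 40.2%) and of 23 of 175 (13.1%, interval 8.92 to 18.9%). The difference between X and the autosomes was not tested.

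**Figure D4:**
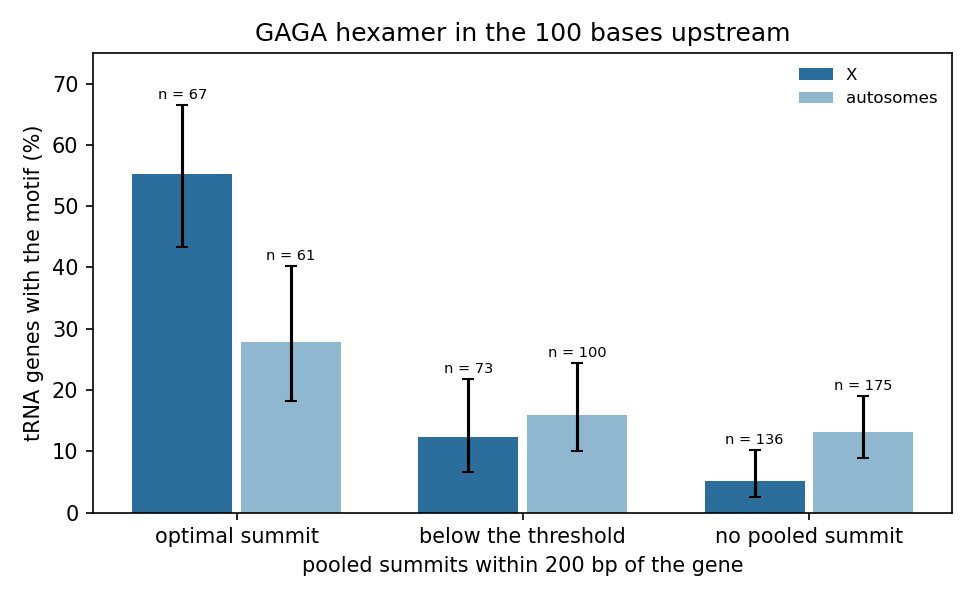
Percentage of tRNA genes with GAGAGA or its reverse complement in the 100 bases upstream, on X and on the autosomes, for genes with an optimal summit, with pooled summits below the threshold alone, and with no pooled summit. Bars of error are 95% Wilson intervals, and the share on X is 55.2% at genes with an optimal summit and 5.15% at genes with none.

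Among exact copies, which have the same gene sequence, the hexamer's share differed in the same direction. These copies are among the genes on which the hexamer was picked, so the direction was largely set by that choice and is no independent check. In the 40 groups of identical genes with and without optimal copies, the hexamer lay upstream of 47 of 105 optimal copies (44.8%, interval 35.6 to 54.3%) and of 36 of 317 other copies (11.4%, interval 8.32 to 15.3%). Of the 24 proline copies, 5 of 7 optimal ones had it, and 2 of the 17 others did. The flanks of the 4 proline copies with the highest scores, which belong to 2 regions, and of the first 3 in genome order with no pooled summit, are shown because the gene that follows each is the same sequence. Each is the 100 bases upstream, 5′ to 3′ on the gene's strand, with the hexamer in capitals on either strand.
F46G11.t1, score 314.9, chrX:5801372-5801471, plus strand: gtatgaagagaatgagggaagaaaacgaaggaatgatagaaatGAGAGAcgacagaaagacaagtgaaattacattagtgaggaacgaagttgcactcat
F46G11.t2, score 314.9, chrX:5801283-5801382, minus strand: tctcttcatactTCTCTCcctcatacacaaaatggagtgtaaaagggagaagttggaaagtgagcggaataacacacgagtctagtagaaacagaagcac
W09D6.t1, score 307.7, chrIII:11066927-11067026, plus strand: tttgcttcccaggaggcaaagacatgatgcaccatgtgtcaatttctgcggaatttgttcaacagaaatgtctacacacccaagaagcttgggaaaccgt
W09D6.t2, score 307.7, chrIII:11066920-11067019, minus strand: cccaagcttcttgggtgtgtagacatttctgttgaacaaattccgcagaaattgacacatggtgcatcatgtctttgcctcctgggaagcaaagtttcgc
ZK970.t1, no pooled summit, chrII:10302299-10302398, plus strand: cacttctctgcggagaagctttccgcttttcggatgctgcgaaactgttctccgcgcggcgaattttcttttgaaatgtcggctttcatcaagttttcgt
ZK970.t2, no pooled summit, chrII:10304911-10305010, plus strand: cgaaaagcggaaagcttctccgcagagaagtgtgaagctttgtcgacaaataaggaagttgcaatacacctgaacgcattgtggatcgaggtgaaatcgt
Y71H2AM.t1, no pooled summit, chrIII:2711611-2711710, plus strand: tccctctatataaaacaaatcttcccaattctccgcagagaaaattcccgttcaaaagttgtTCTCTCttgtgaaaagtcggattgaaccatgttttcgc
Some of these go against the trend: W09D6.t1 and W09D6.t2 have high scores and no hexamer, so that 2 of the 4 copies with the highest scores lack it, and Y71H2AM.t1 has the hexamer and no summit. Within each of these pairs the copies share 1 region with their score, and their printed flanks overlap.

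The core ACATGT, known as a binding sequence of Iroquois proteins from work in mouse, was found at few of these regions. Among optimal regions its share was still larger than in the whole optimal list, on small counts, and the difference was not tested. It lay within 50 bp of 12 of 124 optimal summits at tRNA genes (9.68%) and of 82 of 2445 optimal summits in all (3.35%). Over all 328 regions at tRNA genes the share was 4.88%, and over all pooled regions 2.62%. The 12 optimal summits include those at the leucine gene C04E7.t1 (score 214.8), the glycine gene Y82E9BR.t1 (206.4) and the glutamine gene H08J11.t3 (158.1), which were chosen after their values were seen. The summit at C04E7.t1 also lay in the promoter window of the protein-coding gene sor-3. None of the 12 highest-scoring regions at tRNA genes is among the optimal summits with the core. In the 100 bases upstream of the gene the core was found at 10.2% of genes with an optimal summit, 5.20% of those with lower summits and 5.79% of those with none.

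The optimal regions at tRNA genes were covered in both replicate lists. The optimal list was made from the agreement of the replicates, so this is a description and no independent check. All 124 optimal regions had their summit inside a region of each replicate list, as had 99.2% of the whole optimal list. Over all 328 regions at tRNA genes, 244 (74.4%) were covered in both lists, against 43.0% of all pooled regions. Of the 204 regions below the threshold, 120 (58.8%) were, 48 were held in replicate 1 alone, 34 in replicate 2 alone and 2 in neither. The share over all pooled regions below the threshold was not counted. Overlap by the top 2445 regions of both replicates is a measure stricter in rank but looser in position, since 1 bp of overlap was enough. It was found for 92 of the 124 optimal regions (74.2%) and for 75.3% of the whole optimal list. Spearman's rho between the replicate scores was 0.686 over the 244 regions held in both lists, 0.637 over the 124 optimal ones and 0.148 over the 120 below the threshold. These are descriptions across regions that share their libraries.

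**Figure D5:**
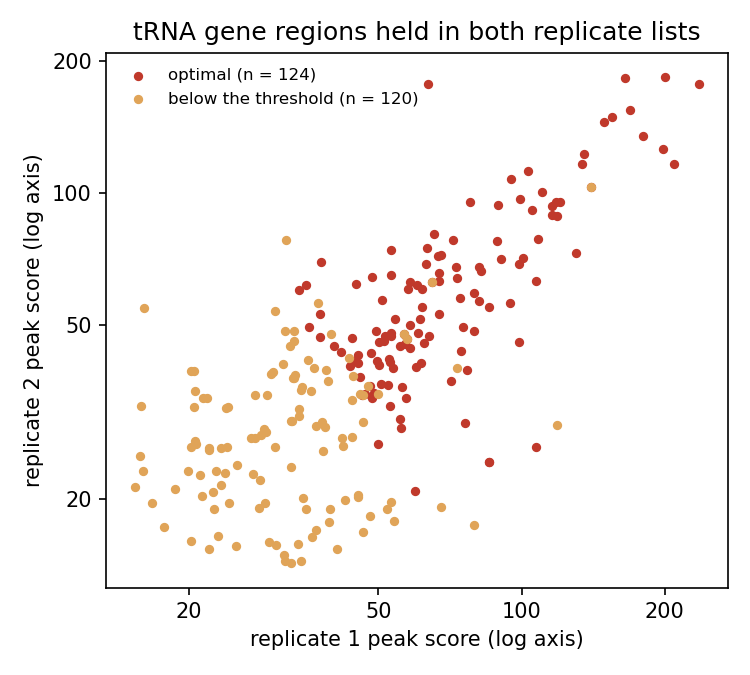
Peak score in replicate 2 against that in replicate 1, both on log axes, for the 244 regions at tRNA genes whose pooled summit was covered in each replicate list. Optimal regions lie towards the upper right, with a rho of 0.637 among themselves, and the 120 regions below the threshold have a rho of 0.148.

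Each replicate list alone gave a like picture. The same rule found 324 regions in the replicate 1 list of 30000, with 35.5% of them in its top 2445, against 8.15% of that list. It found 317 in the replicate 2 list of 24949, with 37.5% in its top 2445, against 9.80% of that list. The SD of those 2 shares was 1.45 percentage points. The scores of replicates 1 and 2 are on scales of their own, and no read depth is known for either library. A gene without a region may lack signal or lack reads, and these cannot be told apart.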

How the data were processed

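The authors deposited peak lists in narrowPeak form, per the file notes in the series: 1 permissive list per replicate, another from both alignments pooled, and the optimal list past a threshold on the irreproducible discovery rate, each derived with a control alignment. The deposited peak score (column 7) has no stated formula. The deposited −log10 q value saturates at 3.58 and served only for an alternative ranking. Not given in the sources used here are the peak caller, the aligner and its handling of reads with several positions, the cutoff and any version. Depth is unknown.

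Summits were set against Ensembl release 115. Sequences came from RefSeq (assembly WBcel235, also called ce11). The ce10 lists were not used. A region was optimal when its coordinates and summit matched the optimal list. Distances ran to the gene body of the nearest tRNA gene, ties to the smaller start. Coordinates are 1-based. Motifs in genes were read on the gene's strand, in flanks and windows on both. Named regions were the 12 optimal ones with the highest scores, the highest per chromosome, the 3 lowest, the highest outside the list, those at the edge of the distance limit, the 3 largest groups of copies and the 3 highest-scoring optimal regions with a second tRNA gene; the 4 proline flanks include a tie for the third place. Members, lists and rules were chosen with earlier results of these data known. The search for motifs upstream of tRNA genes was open-ended: 6 motifs were tried by hand and then all 2077 observed 6-base sequences were ranked by the difference between genes with an optimal summit and genes with none. GAGAGA was kept because it ranked first. The views by pairs of genes, identical copies, pseudogenes and overlapping downstream regions were also added after values were seen. The routines for position and motifs were checked on made cases with known answers. Each alternative changed 1 choice: the distance limit, the definition of optimal and of replicate support, the replicate lists alone, promoter windows, motif and flank length. Both replicates form 1 group. Python 3.11.15, pandas 2.3.3 and scipy 1.17.1 were used. No test across features was run, and regions, copies and neighbouring genes are not independent replicates.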

Additional observations from a re-analysis of the deposited data

How the results depend on the processing

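Of 55 alternatives, 29 moved a result and the cause was not tested beyond the change made. Shares, percentiles and positions counted as moved beyond the SD of the replicate lists. The number of genes with an optimal summit counted as moved only beyond a 1.5-fold change. The correlation and B box share did so only outside their 95% intervals. Main values over the 328 regions at tRNA genes were 37.8% optimal, percentile 87.7, X share 46.6% and 74.4% in both replicates. Their main median position was -8.5. Positions given here are medians over all regions kept at tRNA genes, not over the optimal ones alone. With summits inside the gene alone, 45.7% of regions were optimal, the median percentile was 90.5 and 37 genes had an optimal summit. The median position was then 37, the X share was 45.7% and 79.0% were in both replicates. A limit of 100 bp gave 44.2% optimal, percentile 89.9, position -13 and 79.4% in both replicates; a limit of 500 bp gave 32.7%, percentile 83.4 and 68.1%. Without promoter windows the percentile was 87.3 and the X share 48.8%. Against 128 genes with an optimal summit, the limit of 500 bp gave 145, that of 100 bp 122 and regions outside promoter windows 101. The replicate lists alone gave 118 to 122. All of these were beyond the replicate SD of 2.83 genes but within the 1.5-fold change, so they did not count as moved. Of the 328 regions at tRNA genes, 49 (14.9%) were among the 1222 highest-scoring optimal regions, and 55 genes had such a summit. Joining overlapping regions gave 42.4% optimal, and 1 bp of overlap with an optimal region 46.6%. Support in both replicates was 82.9% by 1 bp of overlap and 36.0% by the top regions of each list. The stricter B box core GTTCGANTC was found in 46.7% of genes, against 95.9% for GTTCNANNC. With either replicate list alone, the optimal share ran from 35.5 to 37.5%, the percentile from 86.6 to 86.7, the position from -7 to -3.5 and the X share from 45.1 to 46.1%. The GAGAGA alternatives were chosen after seeing the data: 50 bases upstream gave 20.3%, and summits within 100 bp 43.4%. None of them corrects for the choice of GAGAGA as the first of 2077 sequences. No paired analysis was possible because there is 1 group and no second one to pair. Depth is unknown, which limits what absence of a region shows.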
